A study of Mus musculus with 12 samples.

Results

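The interaction of genotype and temperature shows which genes of brown adipose tissue (BAT) responded to cold differently in Ebf2 mutant and control mice. For each gene it was the log2 cold response of the mutants minus the log2 cold response of the controls, so that a positive value means a larger rise, or a smaller fall, in the mutants. All 12 of the 12 RNA-seq libraries in the series entered it, in 4 groups of 3, and 15265 of the 24197 genes in the deposited table passed the filter on low counts. Control mice were Adipoq-Cre-; Ebf2 fl/fl and mutant mice were Adipoq-Cre+; Ebf2 fl/fl, so the controls carried the floxed alleles too. Mice were 8 to 10 weeks old and were kept at room temperature (RT) or spent 1 week at 4 degrees C. Adipoq drives Cre in adipocytes, and the other cell types of the tissue are not its target. The labels do not say that the 3 libraries of a group came from separate animals, so p-values measure only the spread between these libraries, which may be technical.

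BAT burns fat and glucose to make heat, which Ucp1 does by letting protons leak across the inner mitochondrial membrane. Cold drives this through sympathetic nerves, noradrenaline and cAMP in the adipocyte, and over days it also raises the synthesis of lipids and the oxidative capacity of the tissue. Ebf2 is a transcription factor that marks and maintains the brown adipocyte. In bulk tissue, fewer cells of a type and less RNA per cell cannot be told apart.

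Library totals ran from 25835650 to 37927038 counts, at which 3 counts, taken as the floor of detection, corresponded to 0.0791 to 0.116 CPM, a unit that divides each count by its library's size. This floor covers counting error only, while the intervals of log2 differences below come from the fit over libraries and hold their spread too. Skeletal muscle transcripts, from a list of 36 markers, made up 0.0187% to 4.01% of the counts of a library. The 4 highest libraries were RT controls 1 and 3 (4.01% and 2.8%), RT mutant 3 (2.54%) and cold control 3 (1.29%). Cold mutant 3 came next at 0.813% and is not among those called muscle-rich below. By replicate number, the share was 0.813% to 2.8% in replicate 3 and 0.0187% to 0.0594% in replicate 2 of the 4 groups. Transcripts of 15 genes that define brown adipocytes made up 0.773% to 2.23% of each library. Ebf2 itself was at 47.4, 64.1 and 32.0 CPM in RT controls, 65.2, 45.7 and 38.3 CPM in RT mutants, 52.3, 42.2 and 41.6 CPM in cold controls and 28.7, 21.6 and 27.0 CPM in cold mutants. Ebf2 was therefore not lower in the RT libraries labelled mutant, and its interaction of -0.87 ± 0.35 (log2, SE) did not pass the test (edgeR adjusted p = 0.336). Which exons are floxed is not given in the sources used here, so the count over the whole gene may not check the labels, and "mutant" below means the libraries labelled so.

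The cold response differed between the genotypes in 73 genes, 0.478% of those tested (edgeR quasi-likelihood test, Benjamini-Hochberg adjusted p under 0.05), and 1869 genes had an unadjusted p under 0.05. The difference was positive in 45 genes, 0.295% of those tested, and negative in 28, 0.183%. A group of 14 crystallins and related genes of the eye lens, all positive, is described apart, which left 31 positive and 28 negative genes. The count depended on single libraries. It was 204 without RT control 1, 35 without RT control 2 and 29 without RT control 3. It was 33, 31 and 33 without RT mutants 1, 2 and 3, and 25, 13 and 14 without cold controls 1, 2 and 3. It was 13 without cold mutant 1 and stayed within 1.5 times the full count without cold mutant 2 or 3. Each of the 73 genes kept its sign in all 12 of these fits. The genes were chosen in the full fit, which shares most libraries with these, so a kept sign adds no support. In every one of the 12 fits, 12 genes were called: 6 lens genes and Insig1, Sik1, Wscd2, Fam131c, Lamb3 and Arhgef37. Without the 4 muscle-rich libraries, which leaves 1 RT control whose spread is taken from the other groups, 26 genes were called, 25 positive and 1 negative. Of the 73 calls 17 remained, all positive, and none of the 28 negative calls did, those of Insig1, Sik1 and Wscd2 included. Of the genes named here, Cryaa, Cryba1, Cryba4, Lamb3, Slc25a34 and Tmem82 were still called.

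Separately by genotype, the controls changed with cold in 1010 genes (6.62%) and the mutants in 2663 (17.4%). Across all 15265 genes the 2 cold responses, which share no library, had a Pearson correlation of 0.525 and a Spearman correlation of 0.527, given as a description across genes, which are not independent replicates. In 30 of the 31 positive genes outside the lens list the mutants rose with cold. The controls rose in 9 of those 30, fell in 2 and did not pass the test in 19. The median log2 cold response over the 31 genes was 0.18 in controls and 1.90 in mutants. Of the 28 negative genes the mutants fell in 21, and the controls rose in 12. Opposite changes that both passed the test were found in 5 of them, in which controls rose and mutants fell. The median cold response over the 28 was 0.78 in controls and -1.04 in mutants, against -0.01 in both genotypes over all genes tested.

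**Figure D1:**
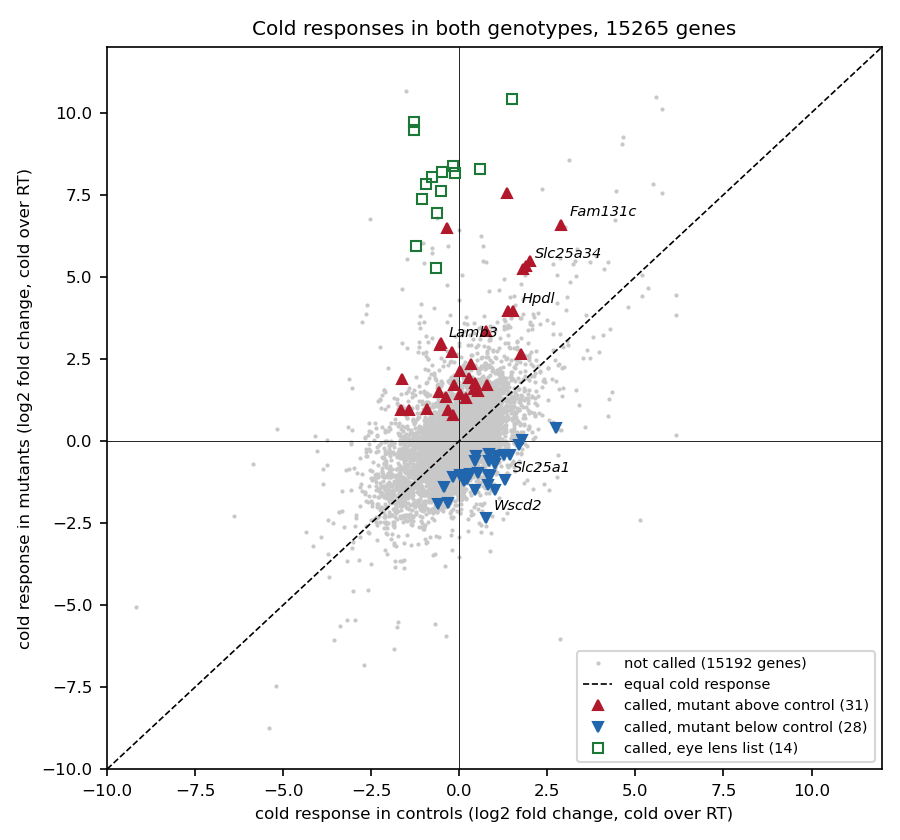
Log2 cold response (cold over RT) in controls on the x axis and in mutants on the y axis, 1 point per gene tested (n = 15265), with the line of equal response dashed. The 31 positive and 28 negative interaction genes and the 14 lens genes lie on their own sides of that line by construction. The 31 positive genes all lie above 0 on the y axis. On the x axis they run from -1.64 to 2.88, with 18 above 0 and 13 below.

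Much of the difference lay at room temperature. RT mutants and RT controls differed in 952 genes in all (6.24%), and cold mutants and cold controls in 171 (1.12%). Of the 31 positive genes, 20 were lower in RT mutants than in RT controls and 7 were higher in cold mutants than in cold controls, while 4 passed neither test. Of the 28 negative genes, 26 were higher in RT mutants than in RT controls, 2 of which were also lower in cold mutants, and another 2 were lower only in cold mutants by these tests. The median log2 difference of mutants from controls over the positive genes was -1.21 at RT and 0.66 in the cold. Over the negative genes it was 1.28 at RT and -0.31 in the cold. These comparisons share libraries with the interaction and are given side by side as a description.

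To say in which group a difference arose, a group was taken to stand apart when its mean log2 CPM lay outside the range of the other 3 means by more than the width of that range. A gene of which 1 group stands apart has an interaction whichever group it is, so the 4 groups are compared with each other. RT mutants stood apart in 25 of the 59 interaction genes outside the lens list (42.4%), against 16.2% of all genes tested. RT controls stood apart in 6 (10.2%, against 10.3%), cold mutants in 5 (8.47%, against 11.9%) and cold controls in 1 (1.69%, against 11.4%). By direction, RT mutants were low in 14 genes (23.7%, against 8.02%) and high in 11 (18.6%, against 8.13%), and RT controls were low in all 6 of theirs (against 4.35%). Cold mutants were high in 4 (6.78%, against 5.05%). In each of these genes the 3 libraries of the group that stood apart did not overlap with the other 9. The interaction test and the rule on means both pick genes with well separated libraries, so this adds no support. Its share over all genes is not given here. The remaining 22 genes had no such group. RT mutants also differed from every other library in lens RNA, as given below. The handling of a group cannot be told apart from its genotype and temperature. With a gap above 2 times the range in place of 1, RT mutants were high in 5 genes, RT controls were low in 2, and RT mutants were low in 24 genes, lens genes included, against 28.

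**Figure D2:**
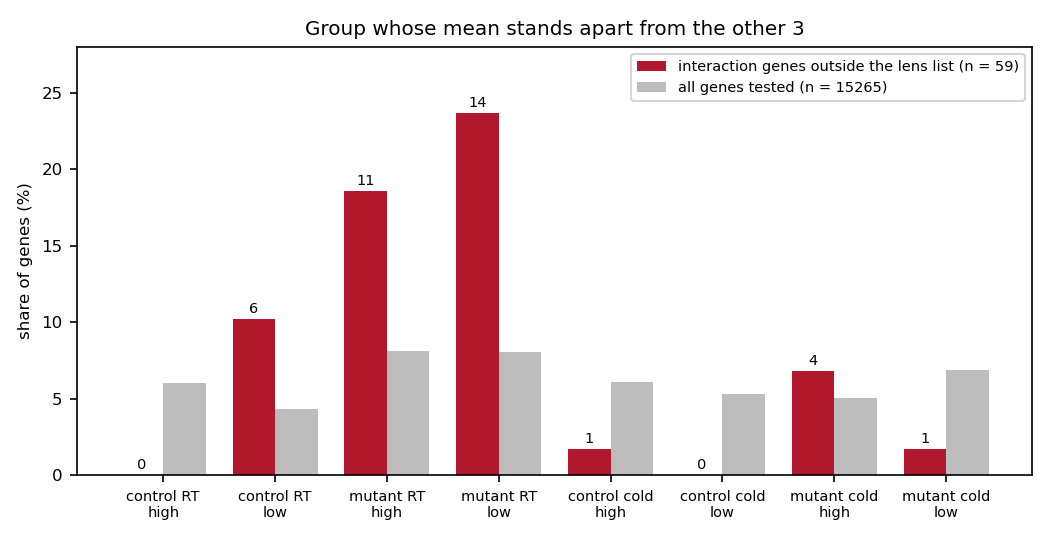
Share of genes (%) in which the mean of the named group stood apart above (high) or below (low) the other 3 group means, for the 59 interaction genes outside the lens list (red, gene counts above the bars) and all 15265 genes tested (grey). The red bars are tallest for RT mutants low (14 genes) and high (11 genes).

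RT mutants compared directly with cold controls differed in 3195 genes in all (20.9%). Of the 28 negative genes outside the lens list, 16 were higher in RT mutants, 2 were lower and 10 did not pass this test, and of the 31 positive genes, 1 was higher, 23 were lower and 7 did not pass. Irf7, Nfil3 and Rbp4, described below, are among those that did not pass. The 6 genes in which RT controls stood low were Insig1, Nsdhl and Pmvk of the sterol pathway, Aacs, which activates acetoacetate for lipid synthesis, the kinase Sik1, which cAMP induces, and the adhesion receptor Gpr64. For each, the comparison of RT mutants with cold controls is given as a log2 difference with its 95% interval. It did not pass the test for Nsdhl, Pmvk, Aacs and Sik1, and it did for Insig1 (higher in RT mutants) and Gpr64 (lower).

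Insig1 encodes the membrane protein that holds the sterol sensor Scap and the SREBP transcription factors in the endoplasmic reticulum, and is itself a target of SREBP. Its level was 234, 200.4 and 193 CPM in RT controls, 579, 730.1 and 712 CPM in RT mutants, 365, 491 and 418 CPM in cold controls and 444, 409.5 and 389 CPM in cold mutants. All 3 RT mutants were higher than any other library, all 3 RT controls were lower than any other, and the cold groups overlapped. With cold, Insig1 rose in controls by 1.02 and fell by 0.70 in mutants on the log2 scale (edgeR adjusted p = 0.00399 and 0.00945), an interaction of -1.72 ± 0.22 (SE, edgeR adjusted p = 0.00762). RT mutants lay 0.67 above cold controls (95% interval 0.33 to 1.01).

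Nsdhl encodes a sterol dehydrogenase of the late cholesterol pathway. It was at 24.2, 25.3 and 19.7 CPM in RT controls, 69.6, 91.9 and 72.4 CPM in RT mutants, 68.5, 77.8 and 77.6 CPM in cold controls and 75.0, 91.0 and 50.1 CPM in cold mutants. The RT controls were low and the other 3 groups overlapped. Nsdhl rose with cold by 1.69 in controls, its cold response in mutants was -0.11 (edgeR adjusted p = 0.742), and the interaction was -1.81 ± 0.28 (edgeR adjusted p = 0.0200). RT mutants differed from cold controls by 0.06 (95% interval -0.37 to 0.49). Pmvk, the phosphomevalonate kinase, had an interaction of -1.51 ± 0.29 (edgeR adjusted p = 0.0492), and its RT mutants differed from cold controls by 0.22 (95% interval -0.22 to 0.67). Nsdhl was called in 6 of the 12 fits without 1 library (adjusted p up to 0.0958) and Pmvk in 2 (up to 0.166).

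The promoters of Insig1 and Nsdhl are shown because these are the sterol genes of the set with the smallest interaction p. They are RefSeq windows (GRCm38.p6) from 250 bases before to 50 bases after the gene's start, plus strand, at chr5:28071162-28071461 for Insig1 and chrX:72918271-72918570 for Nsdhl, with CCAAT on either strand in capitals.
Insig1: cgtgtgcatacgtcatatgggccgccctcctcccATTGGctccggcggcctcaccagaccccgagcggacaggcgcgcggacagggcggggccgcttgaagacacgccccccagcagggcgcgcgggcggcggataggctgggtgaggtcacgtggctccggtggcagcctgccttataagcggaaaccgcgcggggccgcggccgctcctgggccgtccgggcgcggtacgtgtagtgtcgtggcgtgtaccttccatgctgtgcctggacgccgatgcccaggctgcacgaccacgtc
Nsdhl: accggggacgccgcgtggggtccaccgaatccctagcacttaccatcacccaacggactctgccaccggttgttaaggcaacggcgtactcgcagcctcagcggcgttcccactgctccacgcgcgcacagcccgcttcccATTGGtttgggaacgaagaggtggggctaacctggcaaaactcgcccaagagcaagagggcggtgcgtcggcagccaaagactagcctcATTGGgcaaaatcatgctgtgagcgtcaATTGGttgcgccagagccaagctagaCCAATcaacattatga
CCAAT was found in 42.2% of the 11233 tested genes with such a window, in 14 of 38 positive genes (36.8%) and 11 of 20 negative genes (55%). Both strands were searched for 3 further strings, whose matches may overlap with each other. They were a sterol element, TCACNCCAC (in 1.42% of the 11233 genes), a cAMP response element, TGACGTCA (3.34%), and an EBF motif, TCCCNNGGGA (1.27%). The sterol element was in no window of the set, the cAMP element in 1 positive and 2 negative genes, and the EBF motif in 1 positive and 0 negative genes. These strings were chosen with the results known, and a match describes letters only.

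Sik1 encodes a salt-inducible kinase that restrains cAMP-driven transcription. Its level was 33.6, 43.0 and 38.2 CPM in RT controls, 114, 91.2 and 93.3 CPM in RT mutants, 127, 91.8 and 91.8 CPM in cold controls and 68.7, 63.1 and 90.2 CPM in cold mutants. RT controls were the lowest 3 libraries, and RT mutants and cold controls overlapped. Sik1 rose with cold by 1.44 in controls, its response in mutants was -0.43 (edgeR adjusted p = 0.123), and the interaction was -1.86 ± 0.25 (edgeR adjusted p = 0.0103). RT mutants differed from cold controls by -0.06 (95% interval -0.44 to 0.32). Of 22 immediate early and cAMP feedback genes tested, Sik1 was the 1 gene called, and their median interaction was 0.01.

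Aacs was at 216, 158 and 166 CPM in RT controls, 473, 512 and 501 CPM in RT mutants, 454, 699 and 698 CPM in cold controls and 462, 634 and 404 CPM in cold mutants. It rose by 1.78 with cold in controls, against 0.01 in mutants (edgeR adjusted p = 0.974), with an interaction of -1.76 ± 0.30 (edgeR adjusted p = 0.0318), and RT mutants differed from cold controls by -0.32 (95% interval -0.78 to 0.15). Gpr64 was at 4.11, 4.14 and 5.88 CPM in RT controls, 15.2, 17.7 and 14.9 CPM in RT mutants, 34.6, 32.2 and 27.2 CPM in cold controls and 19.9, 32.0 and 11.1 CPM in cold mutants. For Gpr64 the RT mutants were intermediate, 0.98 below cold controls by size (log2 difference -0.98, 95% interval -1.63 to -0.32), and the interaction was -2.34 ± 0.43 (edgeR adjusted p = 0.0449). Aacs was called in 4 of the 12 fits without 1 library (adjusted p up to 0.138) and Gpr64 in 2 (up to 0.155).

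Other lipid synthesis genes had the same placement. Of 25 genes of cholesterol synthesis and sterol uptake that were tested, RT controls stood low in 15 (60%, against 4.35% of all genes), and in 12 of the 22 that were not called. The interaction was called in 3, all negative, against a background of 0.183%, and was below 0 in 22, with a median of -0.79 against 0.02 over all genes. The median log2 cold response of the 25 was 0.97 in controls and 0.08 in mutants, and RT mutants and cold controls differed by a median of 0.00. Controls rose with cold in 16 of them and mutants in 5, where 4.31% of all genes tested rose in controls and 10% in mutants. Fdps and Idi1, both of isoprenoid synthesis, had interactions of -1.60 ± 0.32 and -1.13 ± 0.24 (edgeR adjusted p = 0.0566 and 0.0723).

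Of 27 genes of fatty acid and triglyceride synthesis, RT controls stood low in 12 (44.4%), 11 of them among the 25 not called, Aacs and Slc25a1 were called, and 24 were below 0, with a median interaction of -0.66. Their median cold response was 0.91 in controls and -0.10 in mutants. Fatty acid synthase, Fasn, had a cold response of 1.35 in controls and -0.73 in mutants, with an interaction of -2.08 ± 0.46 that missed the threshold (edgeR adjusted p = 0.0864). Acly, which makes cytosolic acetyl-CoA from citrate, had an interaction of -1.98 ± 0.50 (edgeR adjusted p = 0.124). Leaving out any 1 library left 13 to 16 of the sterol genes and 9 to 14 of the fatty acid genes with RT controls low. Without the 4 muscle-rich libraries these counts were 14 and 9. Both lists were chosen with earlier results of these data known, so their counts are a description.

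Slc25a1, the mitochondrial citrate carrier that supplies Acly, changed with cold in opposite directions in the 2 genotypes. Its level was 588, 542 and 397 CPM in RT controls, 1568, 2339 and 1836 CPM in RT mutants, 1188, 1185 and 1354 CPM in cold controls and 739.5, 1132 and 646 CPM in cold mutants. The 4 groups did not overlap, in the order RT controls, cold mutants, cold controls and RT mutants. The log2 difference of cold mutants from cold controls, -0.57, did not pass the test (edgeR adjusted p = 0.276). Slc25a1 rose by 1.29 in controls and fell by 1.19 in mutants, an interaction of -2.48 ± 0.34 (edgeR adjusted p = 0.0103), and it was called in 10 of the 12 fits without 1 library (adjusted p up to 0.0586). Mogat1, a monoacylglycerol acyltransferase, likewise rose by 0.85 in controls and fell by 0.60 in mutants, with an interaction of -1.46 ± 0.21 (edgeR adjusted p = 0.0161). Mogat1 was highest in RT mutants (27.2, 34.5 and 27.9 CPM) and lowest in RT controls (10.3, 8.79 and 7.98 CPM).

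**Figure D3:**
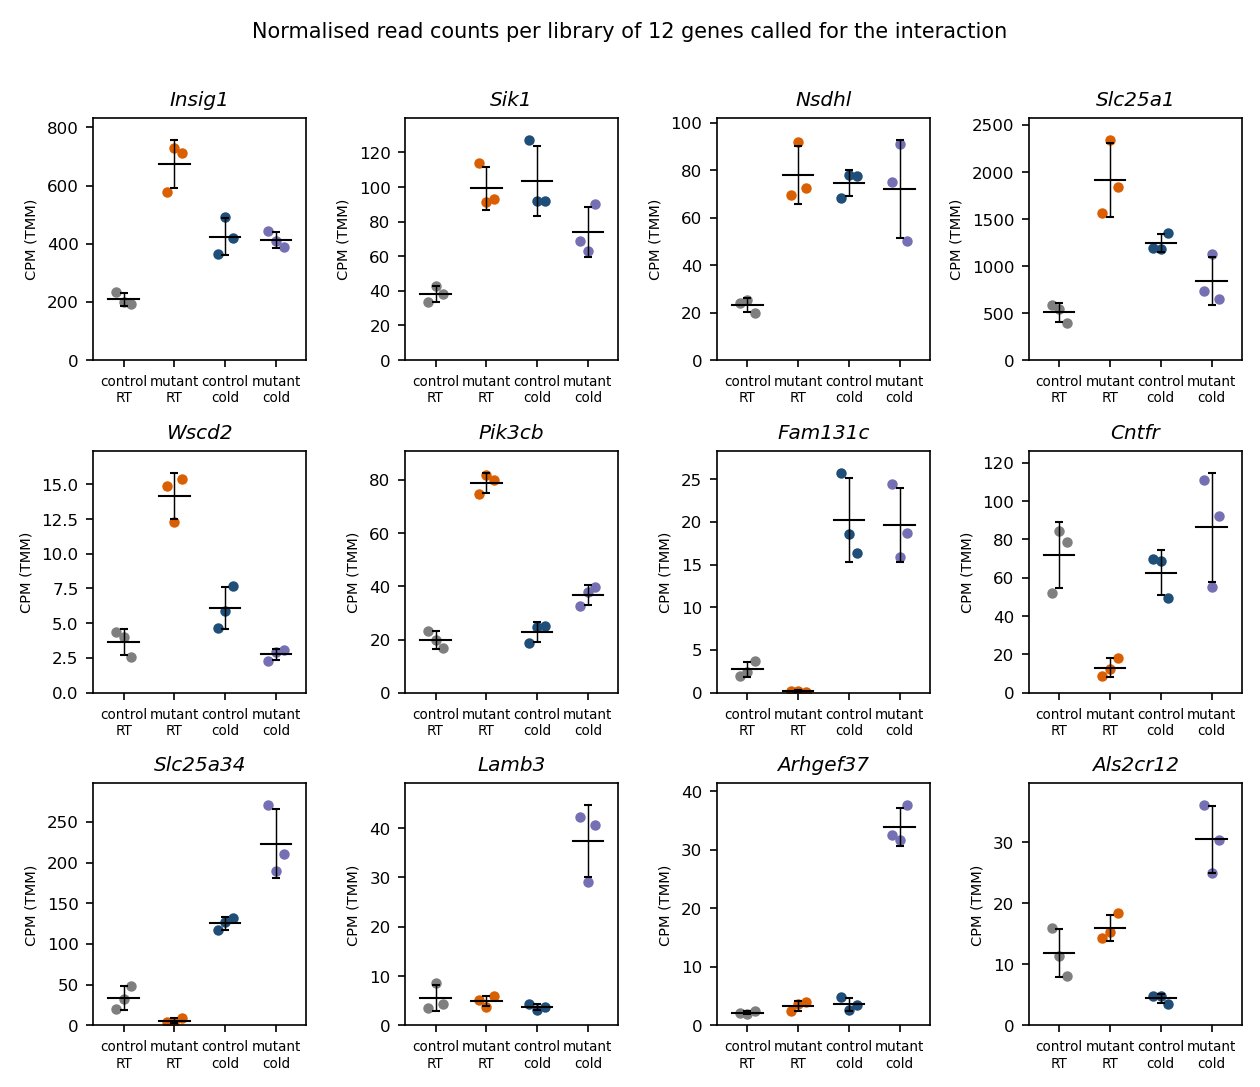
CPM per library (points), group mean (horizontal line) and SD (bars, n = 3) of 12 interaction genes in RT controls, RT mutants, cold controls and cold mutants, with each y axis linear from 0. RT controls are the low group for Insig1, Sik1 and Nsdhl, RT mutants are the high group for Wscd2 and Pik3cb and the low group for Cntfr, and cold mutants are the high group for Lamb3 and Arhgef37.

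RT mutants stood high in 11 genes, all with a negative interaction. Wscd2, the gene with the smallest p among the negative genes, was at 4.33, 4.00 and 2.56 CPM in RT controls, 14.9, 12.3 and 15.4 CPM in RT mutants, 4.68, 5.89 and 7.70 CPM in cold controls and 2.28, 2.93 and 3.04 CPM in cold mutants. RT mutants were above all other libraries, and cold mutants overlapped with RT controls. It fell by 2.36 with cold in mutants, its response in controls was 0.75 (edgeR adjusted p = 0.0893), and the interaction was -3.11 ± 0.35 (edgeR adjusted p = 0.00531). Pik3cb, a catalytic subunit of phosphoinositide 3-kinase, was at 74.6, 82.0 and 80.1 CPM in RT mutants and at 16.6 to 39.8 CPM in the other 9 libraries, with an interaction of -1.30 ± 0.22 (edgeR adjusted p = 0.0272).

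Arpc1b, a subunit of the actin-nucleating Arp2/3 complex, was at 170.2, 203 and 174 CPM in RT mutants and 83.6 to 110.4 CPM elsewhere, with an interaction of -0.92 ± 0.15 (edgeR adjusted p = 0.0250). Lgals12, a galectin of adipocytes found on lipid droplets, was at 339, 293 and 335 CPM in RT mutants and 80.9 to 175 CPM elsewhere, with an interaction of -1.59 ± 0.28 (edgeR adjusted p = 0.0395). Mcam, an adhesion molecule of vascular cells, fell from 206, 179.8 and 196 CPM in RT mutants to 53.3, 48.1 and 52.7 CPM in cold mutants, and its interaction was -1.32 ± 0.25 (edgeR adjusted p = 0.0492). In each of these genes all 3 RT mutants were above the other 9 libraries. Pik3cb, Arpc1b, Lgals12 and Mcam were called in 3, 4, 3 and 1 of the 12 fits without 1 library, with adjusted p up to 0.127, 0.106, 0.14 and 0.196.

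RT mutants stood low in 14 genes outside the lens list, all with a positive interaction. Fam131c was at 2.0, 2.47 and 3.75 CPM in RT controls, 0.255, 0.216 and 0.125 CPM in RT mutants, 25.8, 18.6 and 16.3 CPM in cold controls and 24.4, 15.9 and 18.7 CPM in cold mutants. RT mutants were just above the floor of detection, and the cold groups overlapped. Fam131c rose by 2.88 in controls and by 6.59 in mutants, an interaction of 3.70 ± 0.44 (edgeR adjusted p = 0.00531).

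The membrane receptors in this group were Cntfr, the receptor subunit for ciliary neurotrophic factor, and P2ry1, a receptor for ADP. Cntfr was at 52.1, 84.5 and 78.7 CPM in RT controls, 8.83, 12.2 and 18.3 CPM in RT mutants, 69.7, 69.0 and 49.3 CPM in cold controls and 111, 55.2 and 92.5 CPM in cold mutants. The RT mutants lay below the other 9 libraries, which overlapped. Cntfr rose by 2.72 with cold in mutants and had a response of -0.20 in controls (edgeR adjusted p = 0.737), with an interaction of 2.91 ± 0.44 (edgeR adjusted p = 0.0200). P2ry1 was at 5.04, 4.40 and 6.20 CPM in RT mutants and 10.4 to 17.6 CPM elsewhere, with an interaction of 1.72 ± 0.26 (edgeR adjusted p = 0.0200).

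Several metabolic genes had the same low RT mutant group. Ldhb, a lactate dehydrogenase subunit, was at 282, 248 and 226 CPM in RT mutants and 524 to 859 CPM elsewhere, with an interaction of 1.19 ± 0.22 (edgeR adjusted p = 0.0449). Adtrp, a hydrolase of fatty acid esters, was at 38.8, 41.9 and 45.1 CPM in RT mutants and 74.3 to 178 CPM elsewhere, with an interaction of 1.64 ± 0.29 (edgeR adjusted p = 0.0389). Slc25a42, the mitochondrial coenzyme A carrier, was at 148, 109 and 89.8 CPM in RT mutants and 242 to 458 CPM elsewhere, with an interaction of 1.84 ± 0.34 (edgeR adjusted p = 0.0449). Car14, a membrane carbonic anhydrase, and Kng2, a kininogen, had interactions of 2.12 ± 0.38 and 2.58 ± 0.48 (edgeR adjusted p = 0.0403 and 0.0492). In the cold none of these receptors and metabolic genes differed between the genotypes by the test, with log2 differences from -0.27 (Kng2) to 0.46 (Cntfr). Cntfr, P2ry1, Ldhb, Adtrp, Slc25a42, Car14 and Kng2 were called in 5, 6, 2, 5, 3, 3 and 2 of the 12 fits without 1 library, with adjusted p up to 0.0827, 0.0847, 0.171, 0.127, 0.166, 0.135 and 0.191.

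Lens genes followed this placement at a far larger size. Of 26 lens markers tested, 14 were called, all positive: all 14 rose with cold in mutants, and none passed that test in controls. Where lens RNA in libraries of BAT comes from is not given in the sources used here and was not tested, so these calls need not be a response of brown fat. Cryaa, a structural protein of the lens, was at 57.5, 269 and 70.0 CPM in RT controls, 0.255, 0.432 and 0.313 CPM in RT mutants, 69.2, 51.3 and 70.0 CPM in cold controls and 66.0, 58.7 and 40.6 CPM in cold mutants. The 14 genes summed to 196, 878 and 238 CPM in RT controls and 0.738, 1.66 and 0.877 CPM in RT mutants. They summed to 289, 219 and 306 CPM in cold controls and 265, 239 and 155 CPM in cold mutants. For the other genes in which RT mutants stood apart, a difference in handling cannot be told apart from genotype and was not tested. Between 4 and 7 of the 14 were at 0 in each RT mutant, and Mip, Cryba2 and Crygf were at 0 in all 3, so their fitted fold changes depend on the prior count. The interaction of Cryaa was 8.43 ± 0.86 (edgeR adjusted p = 0.00531). The Cryg genes are near copies of each other and may share reads. Over all 26 markers the median interaction was 7.31, and the summed level of the whole list of 27 ran from 415 to 1080 CPM in RT controls, 104 to 180 CPM in RT mutants, 305 to 454 CPM in cold controls and 218 to 322 CPM in cold mutants.

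Cold mutants stood apart in 5 genes. Lamb3, a laminin chain of basement membranes, was at 3.54, 8.57 and 4.39 CPM in RT controls, 5.12, 3.75 and 5.92 CPM in RT mutants, 4.41, 3.16 and 3.70 CPM in cold controls and 42.3, 29.1 and 40.7 CPM in cold mutants. The other 9 libraries overlapped. Lamb3 rose by 2.92 in mutants and had a response of -0.55 in controls (edgeR adjusted p = 0.307), with an interaction of 3.47 ± 0.44 (edgeR adjusted p = 0.00756). A list of 20 epithelial and mammary markers summed to 360 CPM in cold mutant 3, to 19.8 CPM in the lowest cold mutant and to 10.4 to 40.4 CPM in the libraries of the other groups, and all 14 tested were above 0 with 0 called. Lamb3 was as high in cold mutant 1 (42.3 CPM) as in cold mutant 3 (40.7 CPM), and without cold mutant 3 it was still called. The part of epithelial RNA in the Lamb3 level was not tested.

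Arhgef37 was at 2.11, 1.89 and 2.38 CPM in RT controls, 2.39, 3.71 and 3.95 CPM in RT mutants, 4.82, 2.63 and 3.39 CPM in cold controls and 32.4, 31.6 and 37.6 CPM in cold mutants. Its interaction was 2.58 ± 0.34 (edgeR adjusted p = 0.00991). Agpat5, an acyltransferase of phospholipid synthesis, and the membrane adaptor Ank2 were high in the same group by less, with interactions of 0.98 ± 0.18 and 1.41 ± 0.27 (edgeR adjusted p = 0.0449 and 0.0496). Zfp395 was low in cold mutants, at 19.6, 16.3 and 22.5 CPM against 24.8 to 41.5 CPM elsewhere, with an interaction of -1.30 ± 0.22 (edgeR adjusted p = 0.0318). Cold controls stood apart in 1 gene, the small GTPase Rnd2, which was at 6.13, 6.32 and 5.30 CPM there and 1.95 to 3.24 CPM elsewhere (interaction -1.70 ± 0.33, edgeR adjusted p = 0.0492). Agpat5, Ank2, Zfp395 and Rnd2 were called in 2, 2, 3 and 1 of the 12 fits without 1 library, with adjusted p up to 0.158, 0.166, 0.127 and 0.198.

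Among the 22 genes with no group apart, some rose with cold in both genotypes, and further in mutants. Slc25a34, a member of the mitochondrial carrier family, was at 19.6, 32.5 and 48.6 CPM in RT controls, 3.84, 4.00 and 8.96 CPM in RT mutants, 117, 127 and 132 CPM in cold controls and 270.2, 189 and 211 CPM in cold mutants. The 4 groups did not overlap. Slc25a34 rose by 1.90 in controls and 5.32 in mutants, with an interaction of 3.42 ± 0.51 (edgeR adjusted p = 0.0200), and its neighbour Tmem82 had 3.41 ± 0.55 (edgeR adjusted p = 0.0230). Hpdl, a mitochondrial dioxygenase-like protein, was at 3.28, 1.37 and 3.82 CPM in RT mutants and 47.5, 38.9 and 45.9 CPM in cold mutants, against 4.74, 6.79 and 5.15 CPM and 19.1, 13.5 and 15.3 CPM in the controls (interaction 2.43 ± 0.42, edgeR adjusted p = 0.0318). Alpl, a phosphatase that can hydrolyse phosphocreatine, rose by 1.76 in controls and 2.65 in mutants, with an interaction of 0.89 ± 0.16 (edgeR adjusted p = 0.0449). The peroxisomal carrier Slc25a17 and the lipid-anchor remodelling gene Pgap2 did likewise, with interactions of 0.89 ± 0.17 and 0.98 ± 0.16 (edgeR adjusted p = 0.0462 and 0.0270).

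Other genes of this kind fell with cold in controls and not in mutants. Als2cr12 was at 16.0, 11.4 and 8.07 CPM in RT controls, 14.3, 15.4 and 18.4 CPM in RT mutants, 4.85, 4.84 and 3.54 CPM in cold controls and 36.1, 24.9 and 30.4 CPM in cold mutants. The genotypes overlapped at RT and were far apart in the cold. Als2cr12 fell by 1.42 in controls and rose by 0.93 in mutants, with an interaction of 2.35 ± 0.34 (edgeR adjusted p = 0.0161). Nfil3, a repressor in the output of the circadian clock, fell by 1.64 in controls and had a response of 0.93 in mutants (edgeR adjusted p = 0.0527), with an interaction of 2.57 ± 0.43 (edgeR adjusted p = 0.0272). RT mutants of Nfil3 (12, 13.6 and 12 CPM) overlapped with cold controls (15.7, 9.55 and 9.68 CPM), and the difference between those groups was 0.11 (95% interval -0.55 to 0.76). Cdkn1a, the cell cycle inhibitor p21, fell by 0.92 in controls and rose by 0.97 in mutants, with an interaction of 1.89 ± 0.35 (edgeR adjusted p = 0.0449).

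In the negative direction, Irf7, a transcription factor of the interferon response, was at 12.9, 10.1 and 9.51 CPM in RT controls, 16.4, 19.7 and 21.5 CPM in RT mutants, 22.3, 22.9 and 14.3 CPM in cold controls and 7.69, 9.88 and 9.76 CPM in cold mutants. The cold mutants overlapped with the RT controls, and the RT mutants with the cold controls. Irf7 rose by 0.87 in controls and fell by 1.08 in mutants, with an interaction of -1.95 ± 0.29 (edgeR adjusted p = 0.0171). It was 1 of 26 interferon-stimulated genes tested, whose median was -0.31 with 0 others called. Rbp4, the carrier of retinol, fell by 1.35 in mutants, its response in controls was 0.81 (edgeR adjusted p = 0.0672), and the interaction was -2.16 ± 0.34 (edgeR adjusted p = 0.0230). Fam107b had an interaction of -1.36 ± 0.20 (edgeR adjusted p = 0.0161).

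None of the 22 genes with no group apart was called in all 12 fits without 1 library. Slc25a1 and Mogat1 were called in 10, Als2cr12 and Fam107b in 9, Irf7 in 8, Rbp4 in 7, and Slc25a34 and Hpdl in 5. Nfil3 was called in 4, Tmem82 and Pgap2 in 3, Alpl and Slc25a17 in 2, and Cdkn1a in 1. The highest adjusted p in those fits was 0.0827 for Mogat1, 0.0707 for Als2cr12, 0.0792 for Fam107b and 0.0763 for Irf7.

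No gene of the thermogenic list was called. Of 33 tested, 0 passed for the interaction, where 0.478% of all genes did, a share at which so short a list may well hold none. The interaction was above 0 in 24, with a median of 0.60 against 0.02 over all genes. Their median cold response was 0.43 in controls and 1.21 in mutants, and mutants rose in 21 of them against 10 in controls, where 10% of all genes tested rose in mutants and 4.31% in controls. RT mutants stood low in 11 of the 33 (33.3%, against 8.02%), a count of 8 to 13 when any 1 library was left out. RT mutants were lower than RT controls in 10 and higher in 2, and 0 differed between the genotypes in the cold. This list too was chosen with earlier results known. Markers of red cells and neutrophils had the same placement: of 11 tested, 0 were called, RT mutants stood low in 8 (72.7%), and all 11 interactions were above 0, with a median of 0.79. Their summed level was 1820 to 6840 CPM in RT controls, 1700 to 2600 CPM in RT mutants, 2440 to 5250 CPM in cold controls and 2080 to 3500 CPM in cold mutants, and the median was 0.00228 without RT control 2. The globin genes among them are near copies that may share reads. The part of blood cell RNA in the thermogenic counts was not tested.

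Ucp1 was at 2684, 5617 and 5059 CPM in RT controls, 2019.8, 718 and 1186 CPM in RT mutants, 12212, 11505 and 12089.5 CPM in cold controls and 10971, 11675 and 5867 CPM in cold mutants. RT mutants were the lowest 3 libraries, and the cold groups overlapped. Ucp1 rose by 1.42 in controls and by 2.86 in mutants, and the difference of 1.44 ± 0.54 (95% interval 0.26 to 2.62) did not pass over all genes (edgeR adjusted p = 0.305). Cidea, a lipid droplet protein of brown fat, had an interaction of 0.73 ± 0.36 (edgeR adjusted p = 0.458). The nuclear receptor Esrrg, which drives mitochondrial genes, had the smallest adjusted p of the list, with an interaction of 1.18 ± 0.25 (edgeR adjusted p = 0.0723).

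Elovl3, a fatty acid elongase strongly induced in cold BAT, rose in both genotypes, from 22.7, 13.3 and 25.6 CPM to 637, 525 and 554 CPM in controls and from 70.4, 41.8 and 76.2 CPM to 1192, 1085 and 934 CPM in mutants. Its cold responses were 4.80 and 4.09, and the interaction of -0.71 ± 0.37 did not pass (edgeR adjusted p = 0.477). Bmp8b, a secreted factor of activated brown fat, was at 1.86, 0.327 and 0.0609 CPM in RT controls, 0.0509, 0 and 0 CPM in RT mutants, 41.2, 31.3 and 39.7 CPM in cold controls and 38.4, 18.8 and 46.1 CPM in cold mutants. The RT mutants were under the floor, so its fitted interaction of 4.90 ± 1.67 (edgeR adjusted p = 0.277) depends on the prior count. Dio2, which activates thyroid hormone, was low in cold controls (181, 89.6 and 50.2 CPM) and at 189.5 to 449.5 CPM in the other 9 libraries, with an interaction of 1.58 ± 0.62 (edgeR adjusted p = 0.333). The beta3-adrenergic receptor Adrb3 was at 223, 116 and 172 CPM in RT controls and 296 to 625 CPM elsewhere, with an interaction of -1.33 ± 0.38 (edgeR adjusted p = 0.179). Ppargc1a, Prdm16, Pparg and Fgf21, regulators and a hormone of the programme, had interactions of 0.60 ± 0.47, 0.22 ± 0.40, -0.25 ± 0.27 and -0.84 ± 1.29 (edgeR adjusted p = 0.674, 0.887, 0.773 and 0.863).

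**Figure D4:**
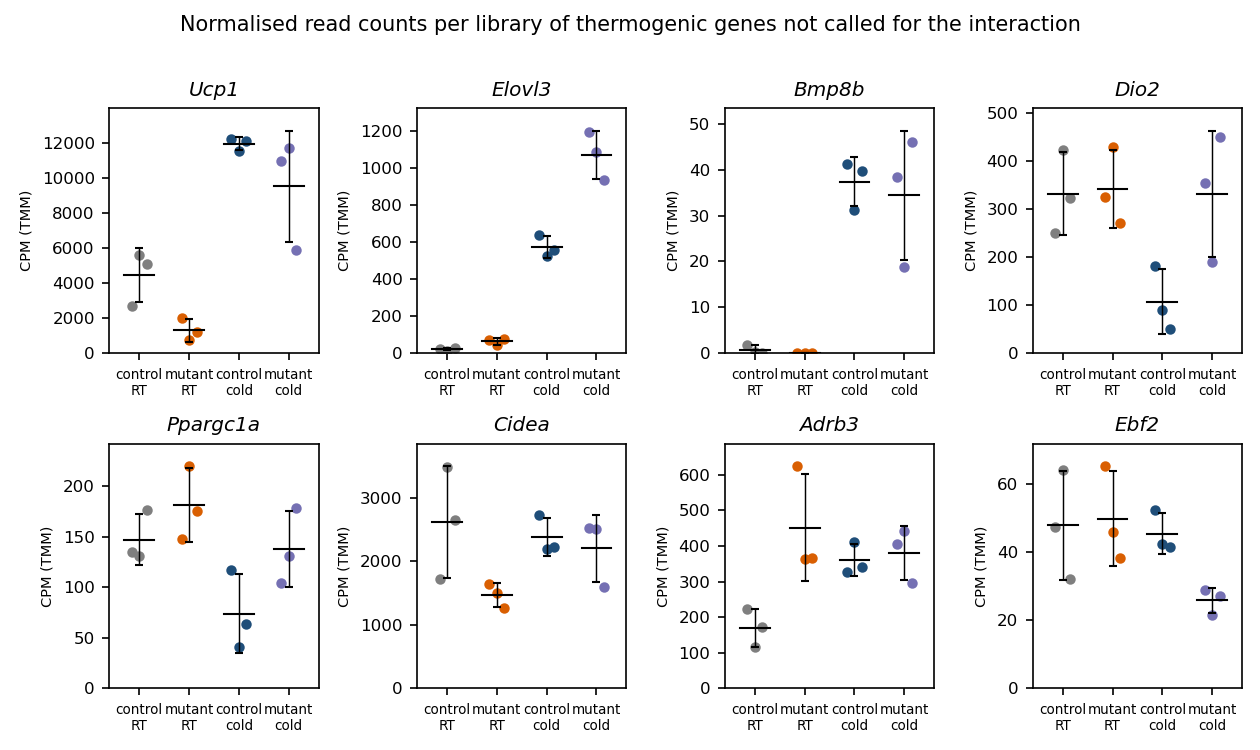
CPM per library (points), group mean (horizontal line) and SD (bars, n = 3) of Ucp1, Elovl3, Bmp8b, Dio2, Ppargc1a, Cidea, Adrb3 and Ebf2 in the 4 groups, with each y axis linear from 0. RT mutants are low for Ucp1, RT controls are low for Adrb3 and cold controls are low for Dio2, and none of the 8 genes passed the interaction test.

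The respiratory chain showed the same RT placement, with smaller median interactions than the thermogenic list in the fit over all 12 libraries. Its median log2 differences of mutants from controls at RT were -0.67 for complex I and -0.69 for the other complexes, against -0.48 for thermogenic genes. In the cold they were -0.37 and -0.44, against 0.05 for thermogenic genes. By the tests, 1 of 37 complex I subunits and 1 of 43 others were lower in RT mutants than in RT controls, against 10 of 33 thermogenic genes. None of the subunits differed in the cold by the test. Complex I summed to 16600, 18300 and 7510 CPM in cold mutants 1, 2 and 3, against 17800 to 19800 CPM in cold controls. The other complexes summed to 49600, 55700 and 20600 CPM, against 54700 to 61000 CPM. Of 37 complex I subunits 0 were called and 34 were above 0, with a median interaction of 0.25. RT mutants stood low in 15 (40.5%, against 8.02% of all genes). Of 43 subunits of complexes II to IV and ATP synthase 0 were called and 33 were above 0, with a median interaction of 0.21. RT mutants stood low in 18 of these (41.9%). Without the 4 muscle-rich libraries RT mutants stood low in 9 and 6, and the median interaction of complexes II to IV and ATP synthase was -0.207. Leaving out any 1 library gave counts of 8 to 29 and 5 to 27, the lowest without cold mutant 2. The median interactions then ran from 0.0596 to 0.56 for complex I and from -0.0542 to 0.571 for the others. Both were lowest without cold mutant 2 and highest without cold mutant 3. The highest counts came without cold mutant 3, whose complex I level was the lowest of the cold mutants. The part of muscle RNA in these medians was not tested.

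Of 30 proliferation genes 0 were called and 29 were above 0, with a median interaction of 0.79. Cold mutants stood high in 12 of them (40%, against 5.05%), and their summed level was 191 to 235 CPM in cold mutants, 131 to 174 CPM in cold controls, 108 to 175 CPM in RT controls and 106 to 141 CPM in RT mutants. Without the muscle-rich libraries cold mutants stood high in 9 and the median was 0.121. Of 24 macrophage and antigen presentation markers 0 were called and 21 were below 0, with a median of -0.77. Their summed level ran from 279 to 493 CPM in cold mutants and from 398 to 1020 CPM in the other libraries. The highest level was that of cold control 1, without which the median was -0.235. Without RT control 1 it was -1.1. Of 16 white-fat-enriched genes tested 0 were called, with a median interaction of -0.43. It ran from -1.05 without cold mutant 3 to -0.161 without RT mutant 3. Their median mutant minus control difference was 1.20 at RT and 0.55 in the cold.

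**Figure D5:**
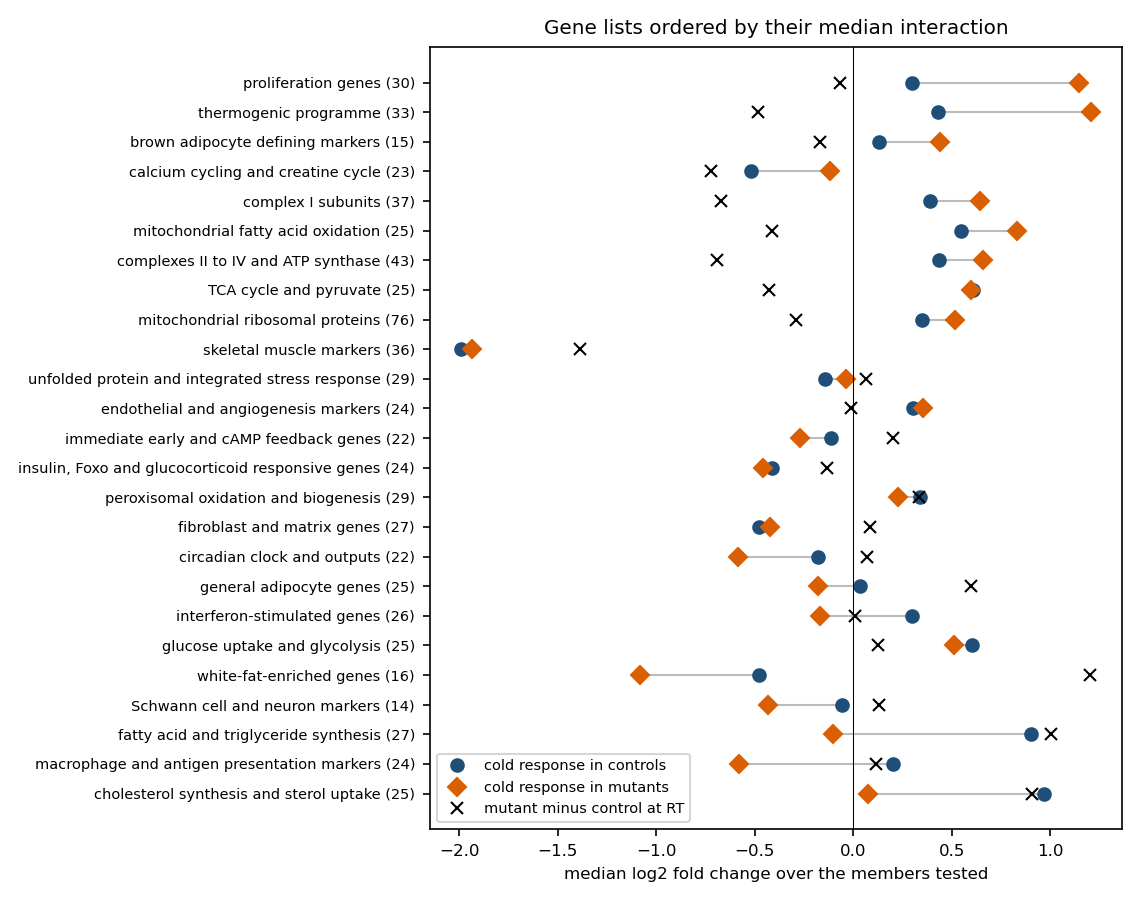
Median log2 fold change over the tested members (number in brackets) of 25 gene lists: cold response in controls (circles), cold response in mutants (diamonds) and mutant minus control at RT (crosses), ordered by median interaction. The lens, epithelial, lymphocyte and blood cell lists are not drawn; in the cholesterol and fatty acid rows the controls' response lies near 1 and the mutants' near 0, and in the thermogenic row the mutants' response (1.21) lies beyond the controls' (0.43).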

How the data were processed

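Per the labels' protocols, total RNA of BAT was isolated by TRIzol and Purelink columns, and libraries used a NEBNext Ultra kit. The authors deposited 1 table of raw gene counts, made with STAR and featureCounts on mm9, per the submitters' processing notes. Not given in the sources used here: versions, annotation, strandedness and how multi-mapping reads were treated. Near-identical, overlapping and antisense genes may therefore share reads. Groups came from the labels.

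The counts were fitted with edgeR 4.0.16 (R 4.3.3) on all 12 libraries with 1 coefficient per group: filterByExpr (minimum count 10, minimum total 15), TMM, robust dispersions and the quasi-likelihood F-test in legacy mode. Tests were two-sided, with Benjamini-Hochberg adjustment over 15265 genes separately for each of 6 comparisons, and a gene was called at an adjusted p under 0.05. Errors of log2 values are SEs from the fit. CPM used TMM library sizes. Group means of log2 CPM used a prior count of 2. The scripts were tested on simulated counts. Replicates of a group differed by a chi-square per degree of freedom of 38.2 to 234, far above sampling noise, and each was counted as a separate replicate.

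The comparison, the 29 gene lists and the motifs were chosen with earlier results of these data known. Named genes were 12 set genes and, among called genes with a mean of at least 1 CPM and a symbol, the 10 with the smallest p per sign, up to 4 per group that stood apart and direction, up to 3 per list and sign, and 3 lens genes. Gpr64, Slc25a42, Car14, Kng2, Hpdl, Slc25a17, Cdkn1a, Mcam and Bri3bp were added after their values were seen, as were uncalled list members (Fdps, Idi1, Fasn, Acly, Esrrg) and lens genes at 0. The alternatives tried were DESeq2 1.42.0, RLE scaling, limma 3.58.1 voom with quality weights, other filters, a non-robust fit, a replicate block, the muscle share as a covariate, an adjusted p under 0.10, other margins of the rule on groups standing apart and each library left out. The fit without the muscle-rich libraries was added after seeing the data. Promoters were matched by symbol in RefSeq (GRCm38.p6). The mm9 sequence was not used here, so the coordinates given are those of GRCm38.p6.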

Additional observations from a re-analysis of the deposited data

Results flagged for a closer look

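A difference between the genotypes in the response to cold, by the interaction test itself, was found in 73 genes. Each value below is the interaction on the log2 scale, mutant response minus control response, of a gene that passed (edgeR adjusted p under 0.05).

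With RT controls low, the values were -1.72 for Insig1, -1.86 for Sik1, -1.81 for Nsdhl, -1.51 for Pmvk, -1.76 for Aacs and -2.34 for Gpr64. With RT mutants high, they were -3.11 for Wscd2, -0.92 for Arpc1b, -1.30 for Pik3cb, -1.59 for Lgals12 and -1.32 for Mcam. With RT mutants low, they were 3.70 for Fam131c, 2.91 for Cntfr, 1.72 for P2ry1, 1.19 for Ldhb, 1.64 for Adtrp, 2.12 for Car14, 1.84 for Slc25a42, 2.58 for Kng2 and 1.11 for Bri3bp, a mitochondrial protein. The lens genes Cryaa, Cryba1 and Cryba4 were at 8.43, 8.77 and 7.18.

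With cold mutants apart, the values were 3.47 for Lamb3, 2.58 for Arhgef37, 0.98 for Agpat5, 1.41 for Ank2 and -1.30 for Zfp395. With cold controls apart, Rnd2 was at -1.70. With no group apart, the positive genes were at 3.42 (Slc25a34), 3.41 (Tmem82), 2.43 (Hpdl), 2.35 (Als2cr12), 2.57 (Nfil3), 1.89 (Cdkn1a), 0.98 (Pgap2), 0.89 (Alpl) and 0.89 (Slc25a17). The negative genes of that kind were at -2.48 (Slc25a1), -2.16 (Rbp4), -1.95 (Irf7), -1.46 (Mogat1) and -1.36 (Fam107b).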

How the results depend on the processing

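The 73 calls, 45 positive and 28 negative, became 452 (225 and 227) with DESeq2 and 1209 (512 and 697) with limma-voom and quality weights, so edgeR's was the smallest count of these tools. A non-robust fit called 48, 15 of them negative, and an adjusted p under 0.10 called 135 (72 and 63). Negative calls were 17 with RLE size factors and 17 without the filter on low counts. Leaving out 1 library gave 13 to 204 calls, 9 to 114 positive and 4 to 90 negative. Without the 4 muscle-rich libraries, a fit added after seeing the data, there were 26 (25 and 1). With the replicate block 34 genes were called, 22 positive and 12 negative. The numbers were not taken to pair the libraries: correlations of deviations between libraries of the same number ran from -0.441 to 0.175 for replicate 1, 0.118 to 0.733 for replicate 2 and 0.282 to 0.594 for replicate 3, and 9 of the 12 libraries correlated best with their own number, a hint from the data and not from the design. Of 43 called genes named, 43 were called with DESeq2, 43 with limma-voom, 43 with a stricter filter, 39 with the muscle share as covariate, 38 with RLE, 34 without the filter, 32 in the non-robust fit, 19 with the block and 6 without the muscle-rich libraries, and none changed sign in these or the 12 fits without 1 library. Those 43 genes were chosen in the full fit, so a kept sign adds no support. The Prdm16 interaction, not called, ranged from -0.0805 without RT control 2, a change of sign, to 0.50 without RT control 1. With a gap above 2 times the range in place of 1, RT mutants stood high in 5 genes and RT controls low in 2, as given above. The causes of these changes were not tested, except that leaving out libraries leaves fewer samples. Depth limits the lens genes, Bmp8b and Fam131c in RT mutants, which were near or under the floor.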

Other observations

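Some interaction genes lie next to each other in RefSeq's order of the tested genes. Tmem82, AI507597 and Slc25a34 are contiguous on chromosome 4, with AI507597 and Tmem82 overlapping, and had interactions of 3.41, 3.47 and 3.42. Reads of overlapping genes cannot be told apart here. Bri3bp and Aacs adjoin on chromosome 5 with opposite signs, 1.11 and -1.76. Cryaa and Sik1 adjoin on chromosome 17, also with opposite signs, 8.43 and -1.86. Kng2 lies near Crygs on chromosome 16 with 3 tested genes between them, Tbccd1, Dnajb11 and Fetub. No test of clustering was made.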
